A study of Homo sapiens with 6 samples.

Results

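ERVL elements are endogenous retroviruses and their promoters, the long terminal repeats (LTRs), left in the genome by old germline infections. Their RNA was followed in 6 libraries of H1, a human embryonic stem cell line. All cells carried a short hairpin RNA against EXOSC3, a subunit of the RNA exosome, that is switched on by doxycycline (dox), and either an empty vector (PB) or EXOSC3r, an EXOSC3 transgene that the hairpin cannot target. PB cells gave 1 library without and 1 with dox, and each of 2 EXOSC3r clones gave the same pair. All cells grew without feeders in medium with puromycin and blasticidin, at passages 40 to 60. There were 0 libraries of cells without the hairpin, the PB condition is 1 line, and each EXOSC3r line is 1 clone. EXOSC3 itself and marker genes of the cell type were not analysed here, so neither the knockdown nor the label of the cells was checked.

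The deposited tables list 1047 sequences, of which 1045 carry names of repeat consensus sequences and 2 are transcripts of ACTB and GAPDH. The ERVL elements are the 35 names that begin with HERVL, ERVL or MLT2, or that are LTR16 or LTR33, alone or with a suffix that does not begin with a digit. They comprise 8 internal parts, between 3037 and 5764 bases long, 9 MLT2 LTRs, 14 LTR16 LTRs and 4 LTR33 LTRs. The LTRs were between 388 and 717 bases long. A consensus stands for many genomic copies, so none of these sequences has a single position in the genome. Reads of an ERVL copy inside the transcript of a gene may count for the ERVL sequence as well.

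The internal part of such an element holds the retroviral genes, and an LTR on either side holds the promoter and the polyadenylation signal. MLT2A1 and MLT2A2 are the LTRs of HERVL. Recombination between the LTRs of an inserted copy often leaves a solitary LTR, so LTR copies outnumber internal copies in the genome. In early cleavage embryos HERVL and MLT2 transcripts are known to be abundant for a short time, and in mouse cells the related MERVL marks a rare state that resembles those embryos. The RNA exosome degrades many transcripts from unstable or unproductive transcription units.

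Levels between libraries are given as CPM, Salmon's estimated counts divided by library sizes adjusted with TMM, a scaling that centres on the bulk of the sequences. Between 3745262 and 5260196 estimated counts were assigned per library, which is not the sequencing depth. Clone 1 stood apart from the other lines. ALU, the most abundant sequence in every library, took 45.4% of its assigned counts without and 52.5% with dox, against 32.99% to 41.8% in the other libraries. ACTB and GAPDH together took 17.0% and 16.2% there, against 12.6% to 14.3%. In bulk samples, fewer cells that transcribe an element and less of its RNA per cell cannot be told apart.

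ERVL transcripts were mostly HERVL and its own LTRs. HERVL, MLT2A2 and MLT2A1 together took between 84.3% and 85.8% of all ERVL counts. HERVL had 5351 CPM in PB cells and 4967 CPM in PB cells with dox. It had 4746 and 4597 CPM in clone 1 without and with dox, and 4943 and 5114 CPM in clone 2. The 6 values lay within 1.16-fold of each other, and those of the EXOSC3r lines overlapped those of PB cells. HERVL held rank 19 to 21 among the 1045 repeats by counts, but only 95 to 112 by TPM, the deposited value per length.

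MLT2A2, the more abundant of the HERVL LTRs, had 2169 CPM in PB cells and 2070 CPM with dox. In clone 1 it had 2052 and 1913 CPM, and in clone 2 it had 2086 and 1958 CPM, again without and with dox. With this scaling each line was lower with dox, but PB cells with dox were above clone 1 without it, so the libraries with and without dox overlapped. MLT2A1 had 806 and 778 CPM in PB cells, 718 and 754 CPM in clone 1, and 779 and 770 CPM in clone 2. Its libraries with and without dox overlapped, and the lowest value was that of clone 1 without dox.

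The other internal parts were far less abundant. ERVL had 420 and 444 CPM in PB cells without and with dox, 420.2 and 449 CPM in clone 1, and 415 and 422 CPM in clone 2. ERVL-B4 was more variable, between 269 and 435 CPM. HERVL66I had between 95.1 and 137 CPM, and HERVL_40 between 22.8 and 43.4 CPM. ERVL-E had 44.3 and 39.4 CPM in PB cells, 43.9 and 37.6 CPM in clone 1, and 43.3 and 40.7 CPM in clone 2. HERVL74 was near the lower limit of the tested range, with 27 and 24 counts in PB cells, 23 and 23 in clone 1, and 25 and 28 in clone 2. HERVL68 had no reads. HERVL thus took between 82.7% and 84.3% of internal counts in each library.

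The remaining MLT2 LTRs formed a gradient. MLT2B4 had 162.5 and 163.1 CPM in PB cells without and with dox, 162.8 and 163.1 CPM in clone 1, and 166 and 177 CPM in clone 2. MLT2B2 had between 93.3 and 152 CPM and MLT2C2 between 30.6 and 42.3 CPM. The groups of libraries overlapped for MLT2B4, which was nearly level. MLT2B3 had 21.07 and 21.13 CPM in PB cells, 17.3 and 23.5 CPM in clone 1, and 18.8 and 20.2 CPM in clone 2. MLT2D had 16.8 and 14.3 CPM in PB cells, 8.67 and 13.8 CPM in clone 1, and 16 and 15.6 CPM in clone 2. Clone 1 without dox was lowest for both. MLT2E and MLT2F had at most 33 and 26 counts in a library. All 9 MLT2 names had reads, in contrast to the other LTR groups.

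LTR16 and LTR33 were at or near the limit of detection. The 14 LTR16 sequences together had between 47 and 84 counts in a library, or 0.133% to 0.228% of ERVL counts, and the 4 LTR33 sequences between 0 and 7. LTR16E1 had 24 and 14 counts in PB cells without and with dox, 8 and 6 in clone 1, and 12 and 12 in clone 2. LTR16B had 17 and 20 counts in PB cells, 22 and 24 in clone 1, and 27 and 7 in clone 2. LTR16D, LTR16D1, LTR16D2, LTR16E2, LTR33A, LTR33C and HERVL68 had no reads in any library. A count of 0 allows up to 3 counts, which is 0.542 to 0.767 CPM depending on the library, for counting error only. These 7 are 20% of the ERVL names, and over all sequences 23.7% had no reads. LTR16, LTR16A, LTR16B1, LTR16B2, LTR16E, LTR33 and LTR33B had reads but at most 6 in any library. Of 28 ERVL names with reads, 18 had whole counts in every library (within 1e-06), among them all 10 LTR16 and both LTR33 names with reads. Salmon gives a fractional count where reads are divided between sequences, as it did for HERVL, ERVL, ERVL-B4, ERVL-E, MLT2A1, MLT2A2, MLT2B2, MLT2B4, MLT2C2 and MLT2D. How the reads were split between those 10, or between them and other sequences, is therefore uncertain. Over all 799 sequences with reads, 39.5% had whole counts.

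**Figure D1:**
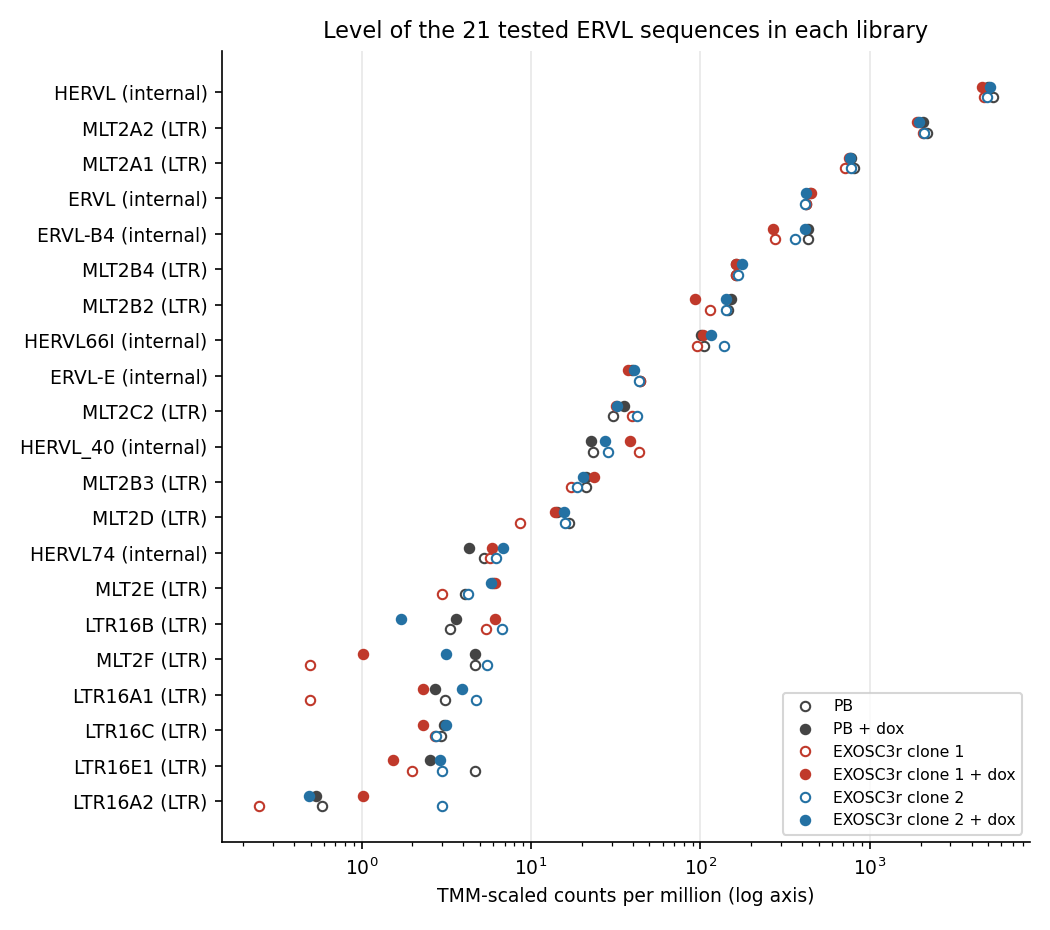
TMM-scaled CPM (log axis) of the 21 ERVL sequences with at least 10 counts in a library, 1 point per library, open without and filled with dox, coloured by line. HERVL lies between 4597 and 5351 CPM and LTR16A2, the lowest, at most at 3.0 CPM. Both points of clone 1 lie below all others for HERVL, MLT2A1, ERVL-B4, MLT2B2, MLT2D, MLT2F, LTR16A1, LTR16C and LTR16E1. They lie above all others for HERVL_40. How often clone 1 lies apart over all tested sequences was not counted.

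The order changes when levels are compared per length. By deposited TPM within a library, MLT2A2 led the ERVL names, followed by MLT2A1 and then HERVL, in all 6 libraries. In PB cells MLT2A2 had 1861 TPM, MLT2A1 941 TPM, HERVL 326 TPM, MLT2B2 142.5 TPM, MLT2B4 136.7 TPM and MLT2C2 34.9 TPM. MLT2B2 and MLT2B4 exchanged ranks between PB cells and the EXOSC3r clones and cannot be ordered. ERVL had 25.1 TPM and ERVL-B4 26.2 TPM in PB cells, and with MLT2D (24.3 TPM) they also exchanged ranks between libraries. MLT2B3 and HERVL66I held ranks 10 and 11 in every library. Below them most neighbours exchanged ranks, and HERVL74 lay below LTR16B, MLT2E, LTR16A1, LTR16C, LTR16E1 and ERVL-E in all 6 libraries.

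The balance between internal parts and LTRs lay in a narrow range. LTRs made up 34.6% of the ERVL counts of PB cells, with a Clopper-Pearson 95% interval from 34.2 to 35.0, and 35.2% with dox (34.7 to 35.6). In clone 1 they took 35.7% (35.2 to 36.2) without and 35.4% (34.9 to 35.9) with dox, and in clone 2 they took 35.6% (35.1 to 36.1) and 33.8% (33.3 to 34.3). The share was higher with dox in PB cells and lower in both clones. The interval of clone 2 with dox lay below those of clone 2 without dox, of clone 1 and of PB cells with dox. Intervals cover counting error only, and the shares were not tested between conditions. Per length the relation turned: LTRs took between 88.7% and 89.5% of ERVL TPM.

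Within the HERVL family alone, MLT2A2 had between 5.39 and 6.10 times the TPM of HERVL, and MLT2A1 between 2.88 and 3.18 times. MLT2A2 had between 1.86 and 2.10 times the TPM of MLT2A1. The lowest MLT2A2 ratio was that of clone 2 with dox and the highest that of clone 1 without dox. These ratios are within a library and do not depend on scaling between libraries. In the MaLR group (47 names of MLT1, MST and THE1 elements, relatives of ERVL that lack its reverse transcriptase), internal parts took between 39.1% and 40.2% of counts, against 64.3% to 66.2% for ERVL names. The MaLR group took a larger share of all counts, between 2.08% and 3.39%, against 0.633% to 1.12% for ERVL. Which names a list holds sets such shares: LTR66, an LTR numbered like HERVL66I but outside the name rule, had between 1.44 and 2.27 times its counts.

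**Figure D2:**
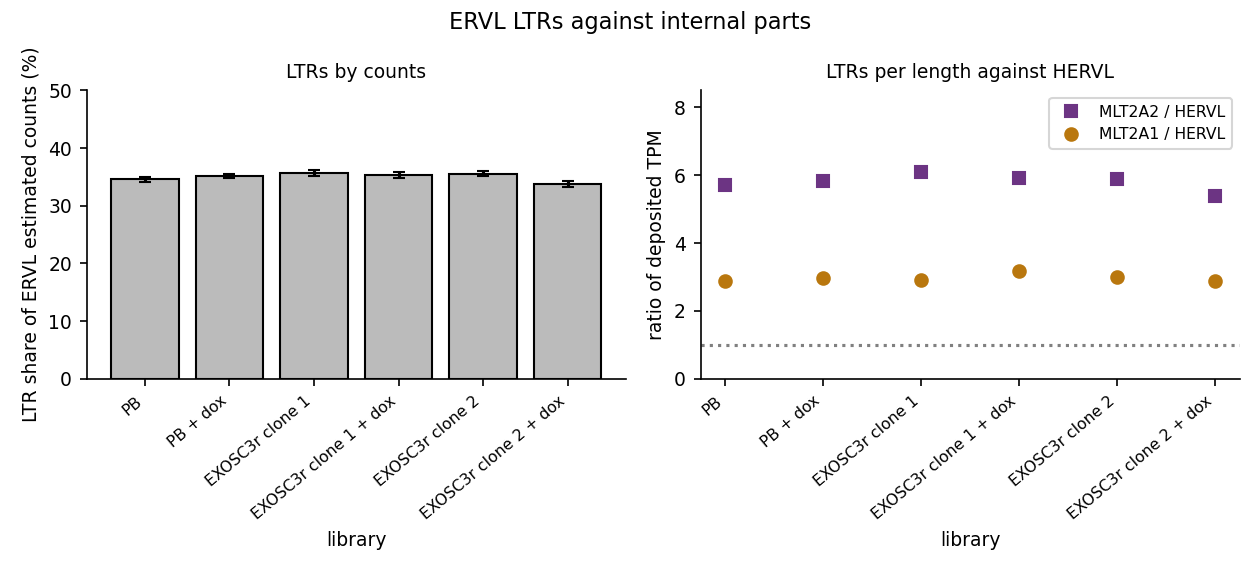
Left, LTR share of ERVL estimated counts in each library with 95% Clopper-Pearson intervals; right, ratio of deposited TPM of MLT2A2 and MLT2A1 to that of HERVL, with a dotted line at equal TPM. The shares lie between 33.8% and 35.7%, and both ratios are above the line in every library.

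Differences were then tested by edgeR's quasi-likelihood test over the 699 sequences with at least 10 counts in at least 1 library, with Benjamini-Hochberg adjustment at 0.05. This filter kept 21 ERVL names: 7 internal parts, all 9 MLT2 LTRs and 5 LTR16 LTRs (LTR16A1, LTR16A2, LTR16B, LTR16C and LTR16E1). LTR16A2, with at most 12 counts, was just inside the filter and LTR33, with at most 6, just outside it. With 4 group means the spread rests on the clones (2 residual degrees of freedom) and on a prior that edgeR estimates over all 699 sequences. Each lone PB library was assumed to vary like a clone. The labels do not name separate cultures, so p-values measure the spread between these libraries.

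Dox switches on the hairpin, and in PB cells no rescuing transgene is present. There 0 of 21 ERVL sequences passed, against 0.858% of all tested sequences, and 0 had an unadjusted p under 0.05, against 4.01%. DESeq2 and limma on TPM also called 0. The median log2 change of the 21 was -0.03, beside 0.00 for all tested sequences, with 9 positive and 12 negative. HERVL had a log2 change of -0.11 ± 0.12 (SE, 95% interval -0.39 to 0.18), MLT2A2 of -0.07 ± 0.09 (-0.29 to 0.15) and MLT2A1 of -0.05 ± 0.10 (-0.29 to 0.19). For these 3 the intervals reach from 0.763-fold to 1.14-fold. ERVL, at 420 CPM without and 444 CPM with dox, had 0.08 ± 0.09 (-0.15 to 0.31). The interval was wider for ERVL-B4 (-0.75 to 0.72). The smallest p of an ERVL member was that of LTR16E1, which had 24 counts without and 14 with dox (log2 -0.88 ± 0.68, edgeR adjusted p = 1.00).

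In EXOSC3r cells, which hold the transgene, 0 of 21 passed, against 0.143% of all tested sequences, and 0 had an unadjusted p under 0.05, against 3.15%. DESeq2 and limma also called 0. Over the clones HERVL averaged 4845 ± 139 CPM without dox (SD, n = 2) and 4855 ± 365 CPM with it. Its log2 change was 0.00 ± 0.08 (SE, 95% interval -0.20 to 0.20). Clone 1 was lower and clone 2 higher with dox. MLT2A2 had 2069 ± 24.2 and 1936 ± 32.3 CPM, with a log2 change of -0.10 ± 0.06 (-0.25 to 0.06). The clones of MLT2A2 did not overlap between the arms in CPM, although the change did not pass. With line as a block in edgeR, MLT2A2 was the 1 of 21 with an unadjusted p under 0.05, against 48 of all 699. In that fit 0 ERVL sequences passed after adjustment.

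MLT2C2, an LTR of the MLT2 gradient, had the smallest p among ERVL members in EXOSC3r cells. PB cells had 30.6 CPM of it without dox and 35.4 CPM with it. Clone 1 had 39.6 and 31.7 CPM, and clone 2 had 42.3 and 32.1 CPM. Both clones were thus lower with dox and the PB line higher. The log2 change in EXOSC3r cells was -0.36 ± 0.15 (95% interval -0.73 to 0.01, edgeR adjusted p = 1.00), and in PB cells 0.21 ± 0.21. The difference between the responses, tested directly, was 0.57 ± 0.26 (-0.07 to 1.21, edgeR adjusted p = 1.00). MLT2C2 had between 124 and 196 counts in a library. Its ratio to MLT2A2 was 1.41% without and 1.71% with dox in PB cells, 1.93% and 1.65% in clone 1, and 2.02% and 1.65% in clone 2. MLT2C2 was singled out by these same counts, so the ratio adds no independent support. How reads were split is uncertain for both names.

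In that direct test of PB minus EXOSC3r responses, 0 of 21 ERVL sequences passed in edgeR, as did 0% of all tested sequences. An unadjusted p under 0.05 was found for 0 ERVL sequences and for 1.29% of all, and DESeq2 and limma called 0 ERVL sequences. The difference was -0.11 ± 0.14 for HERVL (95% interval -0.46 to 0.24), 0.03 ± 0.11 for MLT2A2 (-0.24 to 0.30) and -0.08 ± 0.12 for MLT2A1 (-0.37 to 0.21).

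A change shared by the 3 lines could be bounded more tightly. In an additive fit of line and dox, which pairs the libraries of each line and has 2 residual degrees of freedom, 0 of 21 ERVL sequences passed, against 1.72% of all tested sequences. An unadjusted p under 0.05 was found for 0 ERVL sequences and for 10.3% of all, and DESeq2 and limma called 0. HERVL had a log2 change of -0.03 ± 0.05 (95% interval -0.15 to 0.08), MLT2A1 of 0.00 ± 0.04 (-0.10 to 0.10) and MLT2B4 of 0.03 ± 0.05 (-0.09 to 0.15). For the 8 ERVL sequences whose mean was 100 CPM or more, the intervals reached from -0.25 to 0.17 at most. With TMM scaling MLT2A2 was lower with dox in 3 of 3 lines (-0.09 ± 0.04, -0.18 to 0.01, edgeR adjusted p = 0.52) and ERVL higher in 3 of 3 (0.07 ± 0.04, -0.03 to 0.16, adjusted p = 0.62). Neither passed, and their intervals include 0. The direction also turned with the scaling: with total counts the log2 ratio of MLT2A2 was 0.021 in PB cells, 0.021 in clone 2 and -0.33 in clone 1, and likewise with ACTB and GAPDH scaling (0.10, 0.044 and -0.26 in the same order). ERVL was then lower in clone 1, at -0.14 with total counts and -0.063 with ACTB and GAPDH scaling.

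MLT2E had the smallest p of that fit among ERVL members. It had 21 and 33 counts in PB cells without and with dox, 12 and 24 in clone 1, and 17 and 24 in clone 2. It was higher with dox in all 3 lines with TMM and each other scaling used, but on few counts (log2 0.66 ± 0.31, 95% interval -0.05 to 1.37, edgeR adjusted p = 0.52). With TMM scaling, 4 of the 21 were higher with dox in all 3 lines (ERVL, MLT2B3, MLT2B4 and MLT2E), against 16.6% of all tested sequences. A further 4 were lower in all 3 (MLT2A2, ERVL-E, HERVL_40 and LTR16E1), against 15.9%. These patterns depend on the scaling. With DESeq2 size factors only ERVL and MLT2E were higher in all 3 lines, against 13.9% of all tested sequences. MLT2B3 and MLT2B4 then had log2 ratios of -0.013 in PB cells. The same 4 were lower, against 17.9%. With total counts, ACTB and GAPDH scaling or deposited TPM, MLT2B3 and MLT2E were higher in all 3, against 9.44%, 15.3% and 6.87% of all. There 0 members were lower in all 3, against 9.73%, 6.29% and 5.44% of all. LTR16 members had intervals too wide to bound a change, such as -1.43 to 0.57 for LTR16B, which had 27 counts in clone 2 without and 7 with dox.

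**Figure D3:**
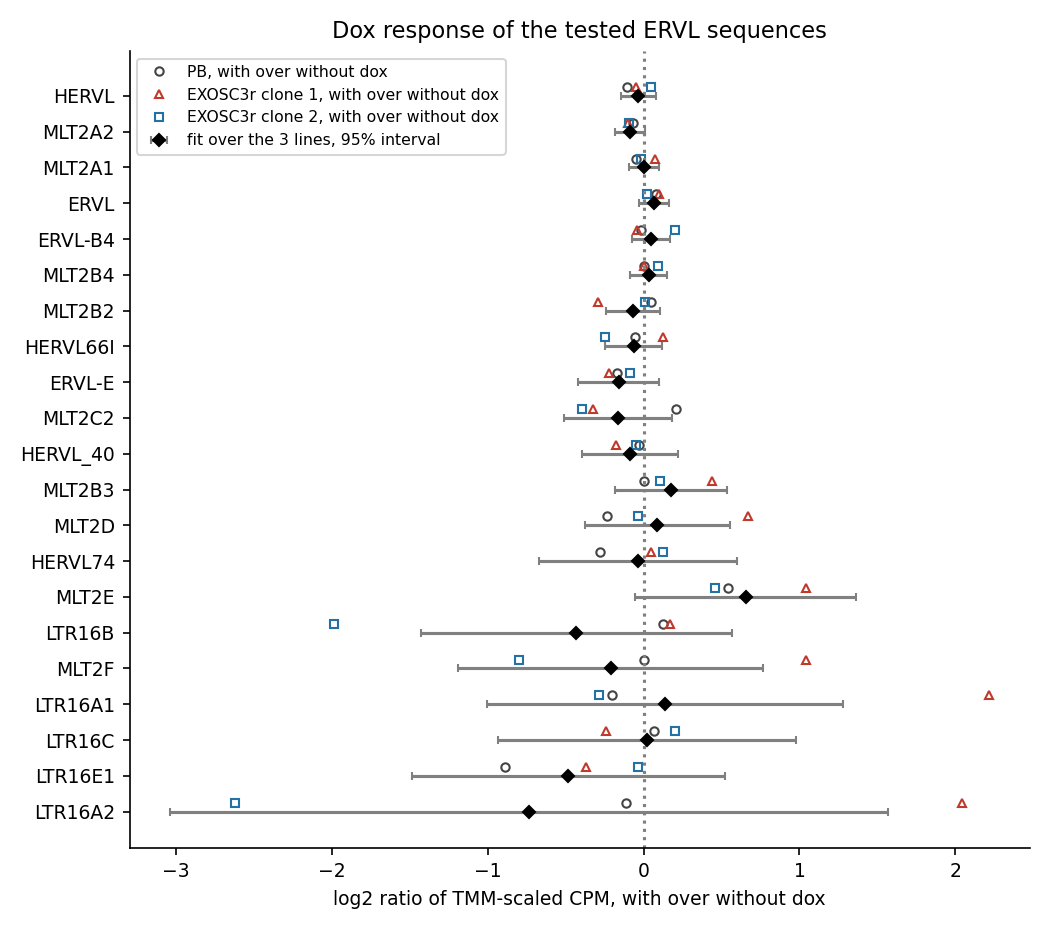
Log2 ratio of CPM with over without dox for the 21 tested ERVL sequences in order of mean CPM, with open symbols for each line and black diamonds with 95% intervals for the fit over the 3 lines. All 21 intervals include 0, and those of HERVL, MLT2A2, MLT2A1, ERVL, ERVL-B4, MLT2B4, MLT2B2 and HERVL66I lie within -0.25 to 0.17.

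EXOSC3r and PB cells were next compared at the same dox state. These comparisons use the same PB libraries as those above. Without dox 0 of 21 ERVL sequences passed in edgeR, as did 0% of all tested sequences, with 0 ERVL sequences and 2.29% of all at an unadjusted p under 0.05. With dox 0 of 21 passed, against 1.00% of all, with 0 ERVL sequences and 7.58% of all at an unadjusted p under 0.05. When line entered as a block, 3 of 21 (ERVL-B4, HERVL and HERVL_40) had an unadjusted p under 0.05 without dox, against 67 of all 699. With dox 2 of 21 did (ERVL-B4 and MLT2B2), against 112 of all 699. In either state 0 ERVL sequences passed after adjustment. DESeq2 and limma on TPM called 0 ERVL sequences in either. HERVL differed by -0.14 ± 0.10 without dox (EXOSC3r minus PB, 95% interval -0.39 to 0.10) and by -0.03 ± 0.10 with dox (-0.28 to 0.21). MLT2A2 differed by -0.07 ± 0.08 and -0.10 ± 0.08. The median of the 21 was -0.10 without dox, beside 0.01 for all tested sequences, and -0.01 with dox, beside 0.01.

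The size of these differences depends on the scaling. Set against ACTB plus GAPDH, HERVL had 45.6 counts per 1000 of theirs in PB cells and 47.7 with dox, 24.4 and 21.2 in clone 1, and 35.0 and 39.8 in clone 2. All 4 EXOSC3r libraries were then below both PB libraries. With this scaling the median ERVL difference was -0.58 without and -0.65 with dox, and that of all tested sequences was -0.47 and -0.63. None of the 21 ERVL sequences passed with this scaling either.

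Libraries of EXOSC3r and PB cells separated about as often for ERVL members as for all tested sequences. With TMM scaling, all 4 EXOSC3r libraries were below both PB libraries for 2 of the 21 (ERVL-B4 and MLT2B2), against 10% of all tested sequences, and above both for another 2 (HERVL_40 and HERVL74), against 11.6%. With ACTB and GAPDH scaling 13 of the 21 were below, against 59.8% of all, and 0 above, against 0.429%. ERVL-B4 had 435 and 431 CPM in PB cells without and with dox, 277 and 269 CPM in clone 1, and 364 and 418 CPM in clone 2. Clone 1 was the lowest line in either dox state, and clone 2 lay between clone 1 and PB cells. MLT2B2 had 147 and 152 CPM in PB cells, 114 and 93.3 CPM in clone 1, and 141 and 142 CPM in clone 2, so that clone 2 was near PB cells. HERVL_40 had 23.2 and 22.8 CPM in PB cells, 43.4 and 38.3 CPM in clone 1, and 28.5 and 27.5 CPM in clone 2.

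Lines were compared in the additive fit of line and dox, a test chosen after these values were seen. It sets a line difference against the spread within lines, so its p-values do not measure how independent clones vary. Between clone 1 and PB cells, 4 of 21 ERVL sequences passed, against 10% of all tested sequences. ERVL-B4 was lower in clone 1 by a log2 difference of -0.66 ± 0.07 (SE, edgeR adjusted p = 0.00029), and MLT2B2 by -0.53 ± 0.09 (adjusted p = 0.0076). These are the smallest values over the settings: with total counts they were -1.20 and -1.06, and with ACTB and GAPDH scaling -1.55 and -1.41, where the median of all sequences was -0.53 and -0.88. HERVL_40 was higher by 0.83 ± 0.17 (adjusted p = 0.013). MLT2F was lower by -2.59 ± 0.64 (adjusted p = 0.035), on 2 and 4 counts in clone 1 against 24 and 26 in PB cells (22 and 13 in clone 2), and it did not pass with DESeq2 (adjusted p = 0.10). HERVL differed by -0.14 ± 0.06 and did not pass (adjusted p = 0.18).

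Between clone 2 and PB cells 0 of 21 passed in edgeR, against 0.429% of all, and 2 (ERVL-B4 and HERVL66I) had an unadjusted p under 0.05, against 8.44%. DESeq2 and limma called 0 ERVL sequences there. Between the clones 2 of 21 passed, against 3.29% of all. ERVL-B4 was higher in clone 2 by 0.52 ± 0.07 (edgeR adjusted p = 0.0090) and MLT2B2 by 0.45 ± 0.10 (adjusted p = 0.035). The 2 clones share the EXOSC3r label, so these members differed between lines of the same label. The level of the transgene was not analysed in either clone. The call for ERVL-B4 was lost with limma on TPM (adjusted p = 0.065 and 0.055 with pseudocounts of 1 and 0.1), and that for MLT2B2 with DESeq2 (adjusted p = 0.10).

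Clone 1 was also the line with the largest ALU share and the largest ACTB and GAPDH share, and the part of these in the line differences was not tested. Measured within a library, where scaling has no effect, ERVL-B4 had 8.13% and 8.67% of the counts of HERVL in PB cells without and with dox. It had 5.83% and 5.86% in clone 1, and 7.36% and 8.17% in clone 2. MLT2B2 had 6.77% and 7.34% of the counts of MLT2A2 in PB cells, 5.58% and 4.88% in clone 1, and 6.75% and 7.25% in clone 2. HERVL_40 had 0.434% and 0.458% of the counts of HERVL in PB cells, 0.913% and 0.834% in clone 1, and 0.577% and 0.538% in clone 2. For all 3 members the libraries of clone 1 thus stood apart from the other 4 in these ratios. The line differences do depend on the scaling between libraries, and only the ratios are free of it. The 3 were singled out by the same counts, so the ratios add no independent support. How reads were split is uncertain for ERVL-B4, MLT2B2, HERVL and MLT2A2. In the comparison of clone 1 with PB cells, ERVL-B4 and MLT2B2 passed in all 8 of the scalings, tools and filters used. HERVL_40 passed there in 4 of the 8. Its log2 difference turned to -0.063 with ACTB and GAPDH scaling and to -0.041 and -0.072 with limma on TPM. Between the clones ERVL-B4 passed in 6 of the 8 and MLT2B2 in 7, and between clone 2 and PB cells both passed in 0.

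**Figure D4:**
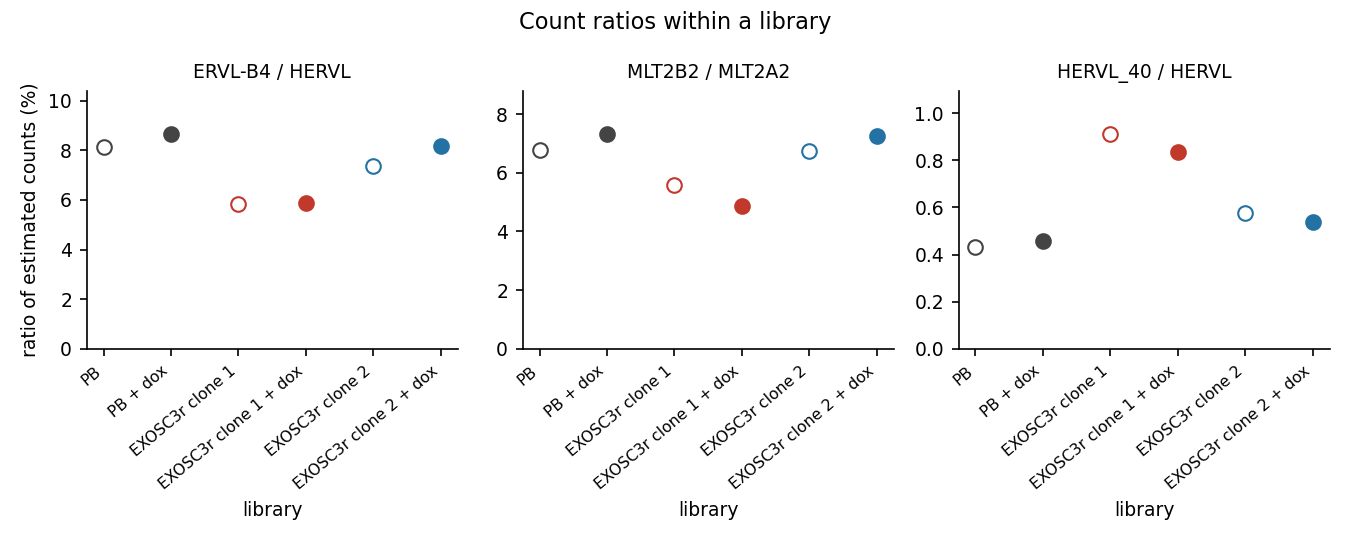
Ratio of estimated counts within each library, in percent, for ERVL-B4 to HERVL, MLT2B2 to MLT2A2 and HERVL_40 to HERVL; open points are without dox, filled points with dox, coloured by line. Clone 1 is lowest in the first 2 panels and highest in the last, at 0.913% and 0.834%. The members shown were singled out by the same counts.

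The members also differed in their spread over the 6 libraries. Of the 8 whose mean was 100 CPM or more, the coefficient of variation was 3.36% for ERVL, 3.49% for MLT2B4, 3.87% for MLT2A1, 4.52% for MLT2A2 and 5.37% for HERVL. It was 13.8% for HERVL66I, 17.3% for MLT2B2 and 20.8% for ERVL-B4. The median over all 253 sequences at that level was 5.95%, with quartiles of 4.01% and 9.40%.

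Related LTR elements were counted in the same way. The MaLR group had 41 tested names, and 61 further names of LTRs of the ERVL class (such as LTR40, LTR66 and MER21) had 42. In PB cells 0 MaLR and 0 further ERVL-class names passed in edgeR with dox, with medians of -0.04 and -0.02, and in EXOSC3r cells 0 and 0 passed, with medians of 0.01 and 0.03. At an unadjusted p under 0.05 there were 0 MaLR names and 1 further name in PB cells, and 0 and 1 in EXOSC3r cells. Between clone 1 and PB cells, in the edgeR line test chosen after seeing the data, 2 MaLR names passed as lower and 0 as higher. There 1 further name passed as higher and 0 as lower, beside 4 of 21 ERVL names and 10% of all tested sequences. Between the clones 0 names of either list passed, beside 2 of 21 ERVL names and 3.29% of all.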

How the data were processed

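Tools named in the submitters' processing notes are Trimmomatic 0.36, Salmon 0.13.0 and bcl2fastq 2.17, and per the labels' protocols the libraries were stranded total RNA after removal of ribosomal RNA. How the index was built, on which genome build and with which settings, is not given in the sources used here. The authors deposited Salmon's estimated counts, which are not scaled between libraries. They also deposited TPM, which divides by length and sums to the same total in every library. The accessions of ACTB and GAPDH were found in RefSeq.

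Counts were rounded. Sequences with at least 10 counts in at least 1 library (699 of 799 with reads) were tested together in edgeR 4.0.16 (R 4.3.3) with TMM scaling, on 4 group means or an additive model of line and dox. SE is the log2 change divided by the square root of F. Intervals are at 95% and use edgeR's total degrees of freedom in both models. These add to the residual ones a prior part estimated over all tested sequences. The code was tested on simulated data with a common dispersion and no differences between lines. That checks the code and does not measure which changes these libraries could show. Alternatives were DESeq2 1.42.0, limma 3.58.1 on log2 TPM with 1 or 0.1 added, other scalings and filters, a line block, and leaving out each EXOSC3r library. Comparisons between lines were added after seeing the data. Pairs of libraries differed by a chi-square per degree of freedom of at least 20.9, so none was a copy. Libraries of a line come from the same cells, so lines pair them. The deviations of the clones without and with dox had r = 0.15 across 699 sequences and 0.60 across the 253 that averaged 100 CPM or more, which are not independent replicates.

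The members and lists were chosen with earlier results of these data known. By the naming rule any ERVL name may be given, with values in every library for HERVL, ERVL, the MLT2 members and the 5 members with the smallest p in each comparison.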

Additional observations from a re-analysis of the deposited data

How the results depend on the processing

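In the 6 planned comparisons of dox and of EXOSC3r with PB cells, 0 ERVL sequences passed under any of 13 alternatives each, among them the replicate block (0 of 21 in each of 5 comparisons; 0 without the block for dox over the 3 lines) and leaving out each EXOSC3r library (0 to 0). The smallest adjusted p over these was 0.11 (EXOSC3r against PB cells with dox). At an unadjusted p under 0.05, with all 6 libraries, the ERVL count ranged from 0 to 3 for EXOSC3r against PB cells without dox. The 3 came with the block, against 67 of all 699. It ranged from 0 to 2 with dox, where the 2 came with the block, against 112 of all 699. For dox in EXOSC3r cells and over the 3 lines it ranged from 0 to 1, and it was 0 throughout for the other 2 comparisons. The first of these counts was higher without clone 2 in the arm without dox. Only 1 EXOSC3r library then remained in that arm. Numbers of all tested sequences that passed ranged from 1 to 7 for dox in PB cells (6 as reported), 0 to 9 for dox in EXOSC3r cells (1), 0 to 7 for the difference of responses (0), 0 to 22 and 0 to 2 for EXOSC3r against PB cells with and without dox (7 and 0), and 0 to 32 for dox over the 3 lines (12). The median ERVL change with dox in PB cells ranged from -0.05 to 0.19, and relative to the median of all sequences from -0.05 to -0.01.

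The comparisons between lines, added after seeing the data, depended on the scaling, and the causes were not tested. Between clone 1 and PB cells 14 ERVL sequences passed with total counts, 16 with ACTB and GAPDH scaling, 17 with limma after adding 1 to TPM and 16 after adding 0.1, where 51.9%, 81.3%, 68.5% and 67.5% of all sequences passed and their median moved to -0.53, -0.88, -0.81 and -0.87. Between the clones 6, 14 and 4 passed with total counts, ACTB and GAPDH scaling and limma with 1 added to TPM, and 1 with DESeq2, against 8.73%, 64.5%, 4.43% and 2.15% of all. Signs turned in clone 1 minus PB for ERVL (-0.53, -0.88, -0.85 and -0.89 with those 4 settings), MLT2B4 (-0.54, -0.89, -0.88 and -0.89), and, with the last 3, MLT2C2 (-0.79, -0.76 and -0.78) and HERVL_40 (-0.063, -0.041 and -0.072). Between the clones they turned with ACTB and GAPDH scaling for ERVL (0.553) and MLT2B3 (0.555).

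ERVL shares of counts, 1.11% and 1.12% in PB cells without and with dox, 0.765% and 0.633% in clone 1 and 0.935% and 1.02% in clone 2, became 2.26%, 2.07%, 2.04%, 2.02%, 2.13% and 2.22% without ALU, ACTB and GAPDH in the denominator, and 0.357%, 0.400%, 0.218%, 0.161%, 0.286% and 0.304% of TPM. The LTR share of ERVL TPM was 89.1%, 89.2%, 89.5%, 89.5%, 89.4% and 88.7%, since TPM divides by length. LTR16 and LTR33 members, with at most 27 counts in a library, limit any statement on those groups.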
